A study of Mus musculus with 4 samples.

Results

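Imprinted genes are expressed from the copy inherited from only 1 parent. The 10 genes described here are H19, Igf2, Igf2r, Dlk1, Meg3, Peg3, Plagl1, Grb10, Mest and Snrpn. Every accessible region that shared at least 1 base with the RefSeq bounds of a gene extended by 50 kb on either side was taken, which gave 45 of the 74777 regions in the list. The windows of H19 and Igf2 overlap each other, as do those of Dlk1 and Meg3, and each region was counted once. The regions nearest to the limit lay 49520 bp from Peg3 on the inside and 54983 bp from Meg3 on the outside. A region 51475 bp from H19 lay outside the H19 window but inside that of Igf2, and so was among the 45.

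The regions were mapped by ATAC-seq, in which the Tn5 transposase cuts and tags open chromatin, in hair follicle stem cells sorted from the back skin of female mice at postnatal day 30. The Foxc1 knockout carried K14-H2BGFP, K14Cre and Foxc1 fl/fl, so that the keratin 14 promoter drives Cre in epithelial cells. The control carried K14-H2BGFP and Foxc1 fl/fl without Cre, and both genotypes thus share the floxed alleles and the green nuclear reporter. Sorted cells were positive for the reporter, CD34 and CD49f and negative for Sca-1. Each genotype was 1 library sequenced in 2 runs, and the 4 runs share 1 list of coordinates without any score, read count or genotype. No knockout against control comparison could therefore be made, no value has a replicate error, and the depth behind each region is unknown. The parental copy that was open at a region cannot be read from the list either. As a check of the sort, peaks lay within 1 kb of a gene end at 10 of 10 stem cell and basal keratinocyte markers, at 0 of 3 immune, 0 of 3 endothelial and 0 of 3 fibroblast markers, and at 2 of 3 melanocyte markers (Dct and Mlana), against 58.2% of all protein-coding genes. Gene ends were used here because 5 of the 10 stem cell and keratinocyte markers have no listed start. Of the other 5, Cd34, Lhx2, Tcf7l1 and Krt5 had a peak within 1 kb of a start, and Krt14 had its nearest peak 1191 bp away.

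An imprint is a methylation mark set in the egg or the sperm at a control region and kept on that parental copy in body cells. At Peg3, Plagl1, Mest and Snrpn the mark comes from the egg and covers a promoter, so that the paternal copy is the expressed one. At Igf2r the mark from the egg lies at the promoter of Airn, an antisense long non-coding RNA that silences Igf2r in cis on the paternal copy. At the Igf2-H19 and Dlk1-Meg3 pairs the mark comes from the sperm and lies in intergenic DNA, where the unmethylated maternal copy of the H19 control region binds the insulator protein CTCF. These genes are best known for dosage effects on fetal growth, and many of them are also transcribed in stem cells of adult tissues, those of the epidermis included.

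The promoters below differ in CpG content, to which the results return. They are RefSeq sequences of GRCm38.p6 (the mm10 coordinates), from 250 bases before to 50 bases after a listed transcript start, written 5′ to 3′ with each CpG dinucleotide in capitals. Plagl1 (26 CpG) and Igf2r (34) are CpG-rich and lay under a peak. Peg3 (13) and Snrpn (7) are poorer in CpG and also lay under a peak. Mest (17), Igf2 (24) and Meg3 (13) did not lie under a peak, so CpG content does not separate the promoters printed here. They are a choice from 19 promoters of the set and do not stand for all of them. Left out are a Grb10 promoter with 45 CpG that a peak overlapped, and 5 promoters with 0 to 4 CpG. Of those 5, 0 were overlapped by a peak.
Plagl1, chr10:13090582-13090881, plus strand: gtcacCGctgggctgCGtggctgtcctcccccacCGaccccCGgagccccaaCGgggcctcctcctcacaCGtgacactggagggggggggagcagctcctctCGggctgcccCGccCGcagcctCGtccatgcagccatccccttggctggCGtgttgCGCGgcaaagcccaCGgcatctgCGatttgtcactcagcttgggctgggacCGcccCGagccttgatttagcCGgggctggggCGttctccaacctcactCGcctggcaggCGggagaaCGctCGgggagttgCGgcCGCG
Igf2r, chr17:12769657-12769956, minus strand: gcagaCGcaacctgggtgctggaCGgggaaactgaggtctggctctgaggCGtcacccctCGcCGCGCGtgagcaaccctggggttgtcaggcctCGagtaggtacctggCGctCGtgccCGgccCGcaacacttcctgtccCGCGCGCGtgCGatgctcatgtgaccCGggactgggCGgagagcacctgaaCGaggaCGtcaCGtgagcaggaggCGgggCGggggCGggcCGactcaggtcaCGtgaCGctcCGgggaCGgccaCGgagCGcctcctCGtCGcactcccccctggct
Peg3, chr7:6730370-6730669, minus strand: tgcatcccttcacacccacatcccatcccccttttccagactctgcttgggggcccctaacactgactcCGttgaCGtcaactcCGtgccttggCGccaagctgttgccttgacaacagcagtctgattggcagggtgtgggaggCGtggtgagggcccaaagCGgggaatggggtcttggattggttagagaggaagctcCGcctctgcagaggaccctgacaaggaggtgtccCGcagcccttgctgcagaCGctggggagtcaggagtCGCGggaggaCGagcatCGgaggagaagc
Snrpn, chr7:60005150-60005449, minus strand: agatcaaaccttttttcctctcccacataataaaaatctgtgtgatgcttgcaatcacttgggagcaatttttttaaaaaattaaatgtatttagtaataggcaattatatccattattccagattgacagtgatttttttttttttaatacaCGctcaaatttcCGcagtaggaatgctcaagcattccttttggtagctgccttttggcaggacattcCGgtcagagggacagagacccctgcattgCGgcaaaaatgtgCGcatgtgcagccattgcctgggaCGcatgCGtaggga
Mest, chr6:30737800-30738099, plus strand: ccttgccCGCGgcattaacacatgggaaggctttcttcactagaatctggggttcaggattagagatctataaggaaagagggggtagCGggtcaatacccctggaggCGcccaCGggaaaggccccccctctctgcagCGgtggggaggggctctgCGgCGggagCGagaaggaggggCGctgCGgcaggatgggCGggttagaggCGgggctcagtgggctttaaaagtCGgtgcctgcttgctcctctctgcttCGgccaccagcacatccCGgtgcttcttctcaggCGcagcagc
Igf2, chr7:142658755-142659054, minus strand: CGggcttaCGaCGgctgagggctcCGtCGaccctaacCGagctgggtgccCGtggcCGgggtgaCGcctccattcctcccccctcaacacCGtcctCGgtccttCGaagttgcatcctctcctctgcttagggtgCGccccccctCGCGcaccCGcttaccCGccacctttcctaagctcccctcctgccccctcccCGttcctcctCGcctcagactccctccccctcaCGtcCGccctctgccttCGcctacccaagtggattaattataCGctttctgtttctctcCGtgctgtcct
Meg3, chr12:109540746-109541045, plus strand: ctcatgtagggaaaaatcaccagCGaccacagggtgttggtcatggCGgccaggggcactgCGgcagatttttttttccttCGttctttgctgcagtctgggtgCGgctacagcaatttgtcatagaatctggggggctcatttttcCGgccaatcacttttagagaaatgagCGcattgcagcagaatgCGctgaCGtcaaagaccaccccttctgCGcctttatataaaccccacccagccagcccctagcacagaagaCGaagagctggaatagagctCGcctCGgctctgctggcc

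Starts of 6 of the 10 imprinted genes were accessible. Igf2r, Peg3, Plagl1, Grb10, Mest and Snrpn had a peak within 1 kb of at least 1 listed start, and H19, Igf2, Dlk1 and Meg3 had none. The same was true of 59.0% of all protein-coding genes and 26.7% of all long non-coding RNA genes (47.6% of both kinds together), so 6 of 10 was near the share of genes in general. Of the 20 starts listed for the 10 genes, 7 had a peak within 1 kb and 4 lay inside one. The shares above count genes and not starts, so they are no measure for these counts. Counted by promoter window of 300 bp, a peak overlapped 5 of 19 promoters of the set and 41.5% of all promoters. The start of H19, which the promoter table does not place, was taken as the upper bound of the gene, since H19 is read from the minus strand. Genes with more listed starts have more chances to be counted. With 1, 2, 3 and 4 listed starts, 55.9%, 74.4%, 78.7% and 80.6% of protein-coding genes had a start peak, and Igf2 with its 4 starts had none.

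**Figure D1:**
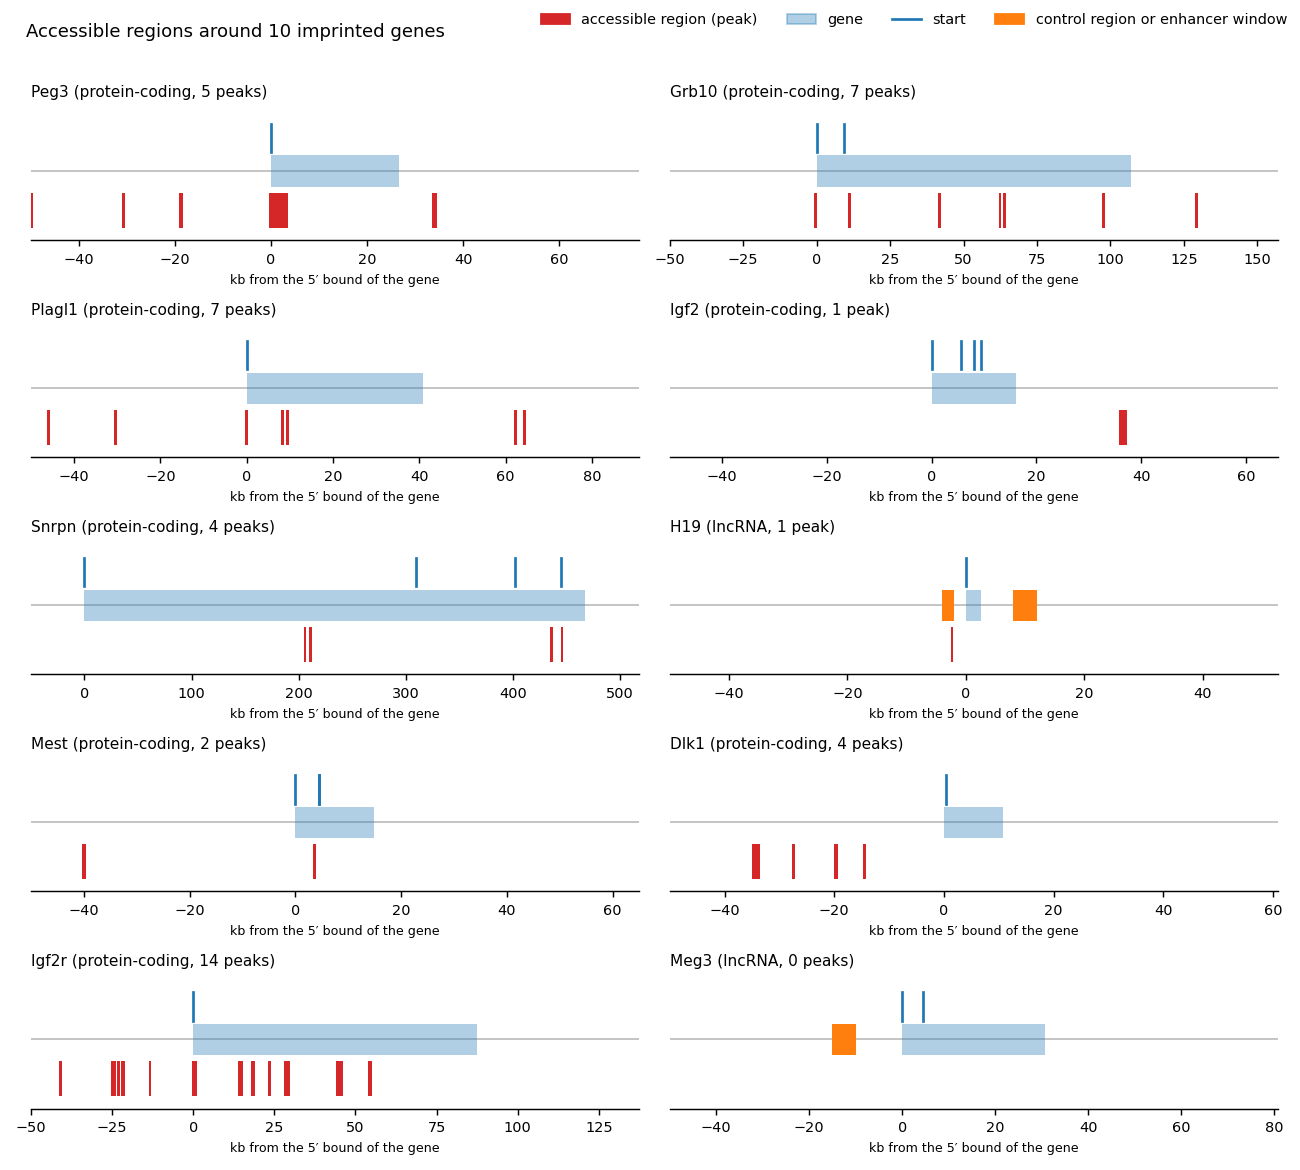
Each panel maps 1 imprinted gene with its accessible regions; the horizontal axis is the distance in kb from the 5′ bound of the gene in the direction of transcription, on a scale of its own, and very narrow regions are widened to stay visible. Regions sit at a start of Peg3, Plagl1, Snrpn, Mest, Igf2r and Grb10, Meg3 has 0 regions, and 1 region touches the control region window upstream of H19.

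Peg3 encodes a large zinc finger protein and is expressed from the paternal copy. Its start lay under the widest of the 45 regions, a peak of 3862 bp on chromosome 7 from 6726934 to 6730795 (mm10), wider than 99.6% of all regions in the list. The peak reached 376 bp upstream of the Peg3 start and 3485 bp downstream, into the gene. It also covered the start of Usp29, a deubiquitinase gene that runs in the opposite direction from the same promoter region. Zim1, the neighbouring zinc finger gene that is expressed from the maternal copy, had a peak of 1107 bp at its own start, 6835 bp beyond the 3′ end of Peg3. The other 3 peaks of the window, of 818, 200 and 494 bp, lay inside Usp29.

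Plagl1 encodes a zinc finger transcription factor that restrains proliferation. A peak of 663 bp on chromosome 10 from 13090420 to 13091082 covered its start, reaching 412 bp upstream and 250 bp downstream, and also covered the start of the non-coding gene Hymai. Of the other 6 peaks in the window, the pair inside the gene measured 651 and 255 bp. An upstream peak of 632 bp lay at the start of the non-coding gene Gm40602, 30155 bp from Plagl1. No peak of this locus exceeded 700 bp.

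Snrpn encodes a core protein of the spliceosome and shares its promoter with Snurf. RefSeq lists 4 starts spread along 467683 bp of gene, and 1 of them was accessible. That was the start closest to the coding exons, at 60005199 on chromosome 7, under a peak of 1666 bp that reached 65 bp upstream and 1600 bp downstream. The other 3 starts, at 60047978, 60140225 and 60450177, had their nearest peaks 32962, 98518 and 167138 bp away. A second, wider peak of 2225 bp lay 7593 bp upstream of the accessible start. The remaining peaks of this locus, of 311 and 857 bp, lay far inside the longest transcript.

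Mest encodes a protein of the alpha/beta hydrolase fold family and is expressed from the paternal copy. Its locus held 2 peaks, and the one near the gene measured 335 bp, on chromosome 6 from 30736929 to 30737263. It ended 787 bp upstream of the start at 30738050 and lay 3423 bp downstream of the outermost start at 30733506, so that none of the 3 listed starts was covered. The other peak, of 823 bp, lay at a listed start of Cep41, a gene of the cilium. After the Mest peak the next one followed only after 158.5 kb without any.

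Igf2r encodes the receptor that binds insulin-like growth factor 2 for degradation and carries lysosomal enzymes, and it is expressed from the maternal copy. Its window was the richest of the 10, with 14 peaks of 228 to 1957 bp. The Igf2r start lay under a peak of 1698 bp, on chromosome 17 from 12768508 to 12770205. The Airn start, inside Igf2r, lay under a peak of 1883 bp from 12739901 to 12741783, of which 1410 bp were upstream of Airn. Both promoters of this opposed pair were thus in the list, although the 2 transcripts are made from different parental copies. The widest peak, 1957 bp from 12723669 to 12725625, lay inside Igf2r beyond the Airn start. The 6 peaks upstream of Igf2r all lay within the Airn transcription unit, 4 of them in a group with near edges 21134 to 23923 bp from the Igf2r start.

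Grb10 encodes an adaptor that restrains signalling from insulin and insulin-like growth factor receptors. It is expressed from the maternal copy in most tissues and from the paternal copy in neurons, where transcription starts at an internal promoter. Its outer start, at 12037420 on chromosome 11, was not covered, but a peak of 499 bp began 110 bp upstream. The second listed start, at 12027971, had its nearest peak 1378 bp downstream. That peak, of 1026 bp from 12025568 to 12026593, was the widest of the 7 in the window. The 4 other peaks inside the gene measured between 204 and 411 bp.

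Peaks were absent from the starts of both intergenic pairs. Igf2 encodes a fetal growth factor expressed from the paternal copy, and H19 a long non-coding RNA expressed from the maternal copy. The Igf2 window held 1 peak, as H19 did, where 15.7% of protein-coding gene windows held at most 1. The Igf2 peak measured 1513 bp and lay on chromosome 7 from 142629621 to 142631133, between the genes, 19635 bp beyond the 3′ end of Igf2. The 4 listed Igf2 starts were 26363 to 35683 bp from it. Above this peak followed 144.0 kb without a peak, which held Igf2 and the insulin gene Ins2 whole.

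The peak in the H19 window touched the control region. With the H19 imprinting control region placed 2 to 4 kb upstream of the start, the peak ran from 2216 to 2415 bp upstream (142580362 to 142580561). Its 200 bp is the smallest width in the list, shared by 6.52% of regions. Of all genes with a listed start, 11.4% had a peak at this distance upstream. The downstream enhancers that H19 and Igf2 share in endoderm, placed 8 to 12 kb downstream of the H19 start, held 0 peaks. Of all genes, 15.5% had a peak in that window. The peak-free stretch that began below the control region peak measured 92.6 kb and held H19 and the skeletal muscle gene Tnnt3 whole.

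Dlk1 encodes a transmembrane protein related to Notch ligands that holds back differentiation of precursor cells, and Meg3 is a long non-coding RNA expressed from the maternal copy. The Meg3 window, of 130.7 kb, held 0 peaks, as did the windows of 7.92% of protein-coding genes. The Dlk1 window held 4, of 443 to 1489 bp, all of them upstream of the gene and the nearest 14245 bp from it. From that peak, chromosome 12 had no accessible region for 188.5 kb, from 109438241 to 109626711. Of 74685 stretches between neighbouring regions on the autosomes and X, 2240 were at least as long, a count of stretches and not of bases. Long stretches also touched genes with a start peak. The longest measured 372.7 kb at Snrpn (510 at least as long), 158.5 kb at Mest and 95.4 kb at Igf2r. At Plagl1, Grb10 and Peg3 the longest measured 52.5, 33.4 and 29.9 kb. Dlk1, Meg3, the retrotransposon-derived gene Rtl1 and 20 microRNA genes lay wholly inside the 188.5 kb stretch. The intergenic control region, placed 10 to 15 kb upstream of the Meg3 start, was therefore empty too, with the nearest peak 87756 bp away, against a peak in 18.8% of all genes at that distance.

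Some of these genes are hosts of microRNAs, short RNAs that bind target transcripts mainly through their seed (bases 2 to 8). The windows held 22 microRNA hairpins in the RefSeq table, and 0 had a peak within 1 kb, against 19.1% of all hairpins. Of the 22, 19 lie in the Meg3 window, all within the 188.5 kb stretch without a peak. They are therefore not separate cases, and 0 of 22 is not a result about single hairpins. Mir335 in Mest was 4036 bp from its nearest peak, Mir675 in H19 3215 bp and Mir483 in Igf2 23791 bp. The 19 in the Meg3 window, Mir770 among them, were 8376 to 62927 bp from one. These distances say where peaks lay and not where the hairpins are transcribed from, since a microRNA can be cut from its host's transcript. The mature sequences of the 5p arms of those inside a gene of the set (RefSeq, GRCm38.p6, seed in capitals) show that they are unrelated in seed, and the 8 mature arms of these 4 hairpins have 8 different seeds.
miR-335-5p: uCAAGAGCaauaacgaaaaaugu
miR-483-5p: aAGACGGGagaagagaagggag
miR-675-5p: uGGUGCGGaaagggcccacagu
miR-770-5p: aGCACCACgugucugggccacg

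Peak number varied widely among the loci. Igf2r had 7.475 peaks per 100 kb of window, Plagl1 4.969, Peg3 3.95, Dlk1 3.608 and Grb10 3.383. Mest had 1.74, H19 0.974, Igf2 0.862, Snrpn 0.705 and Meg3 0. The median of the 10 windows was 2.562 per 100 kb, against 3.824 (quartiles 1.895 and 6.155) over the windows of 21631 protein-coding genes drawn in the same way. Igf2r stood above 84.2% of those windows, while Snrpn, Igf2 and H19 stood above 9.22%, 11.0% and 14.1% of them. H19 and Meg3 are long non-coding RNA genes and are set here against protein-coding windows only. The 45 regions had a median width of 632 bp (quartiles 397 and 1136), against 587 bp (quartiles 341 and 1025) over the whole list. By place, 6 lay at a start of a gene of the set, 17 elsewhere inside such a gene, 17 upstream and 5 downstream. The 6 at a start of the set had a median of 1164.5 bp and the other 39 one of 625 bp. The other 39 include the peaks at the starts of Airn, Zim1, Gm40602 and Cep41. Widths were not split in this way over the whole list. With 1 value per locus and no reads, none of these differences has a replicate error.

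**Figure D2:**
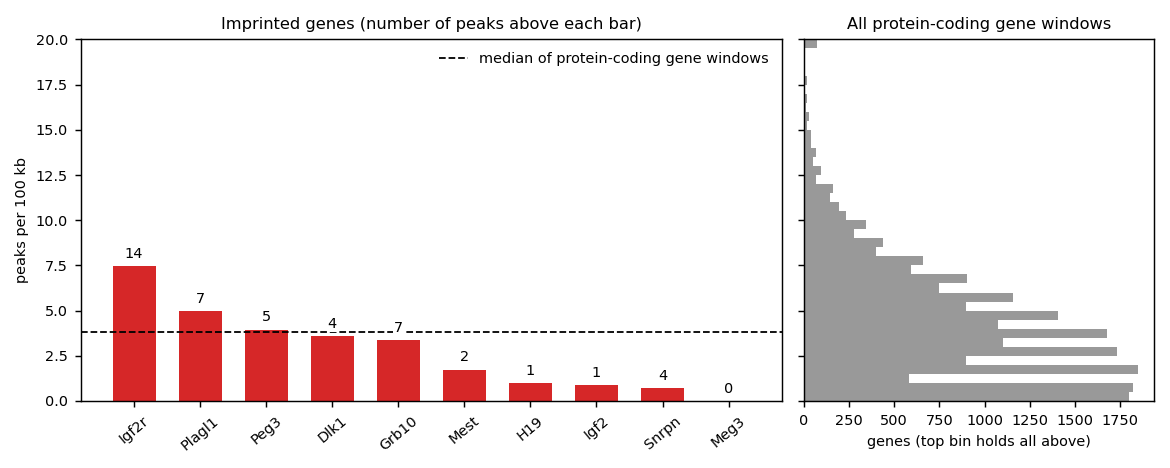
The left panel gives peaks per 100 kb in the window of each imprinted gene, with the number of peaks above the bar and the median of protein-coding gene windows as a dashed line; the right panel is the distribution of the same density over all protein-coding gene windows. Igf2r, Plagl1 and Peg3 stand above the median of 3.824, and the other 7 stand below it.

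The promoters of the set that a peak overlapped had a higher median CpG count than the others, with wide overlap. In the 19 promoters that the table holds for 9 of the genes, the 5 that shared a base with a peak had a median of 26 CpG per 300 bp (Grb10 45, Igf2r 34, Plagl1 26, Peg3 13 and Snrpn 7). The other 14 had a median of 8.5. Over all 32619 promoters the medians were 21 under a peak and 4 elsewhere, in the same order as in the set. Peaks overlapped 41.5% of all promoters, and 82.7% of those with 15 or more CpG, 35.2% of those with 5 to 14 and 7.84% of those with 0 to 4. In the same classes the set had 3 of 6, 2 of 8 and 0 of 5. The CpG-rich promoters without a peak were the Igf2 promoter printed above (24 CpG) and the pair of Mest promoters that start 3 bp apart (17 CpG each). Among the 4 Snrpn promoters, the one under the peak had 7 CpG and the others 4, 3 and 2. The Airn promoter, with 3 CpG in its window, was an exception on the other side and lay under a peak.

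**Figure D3:**
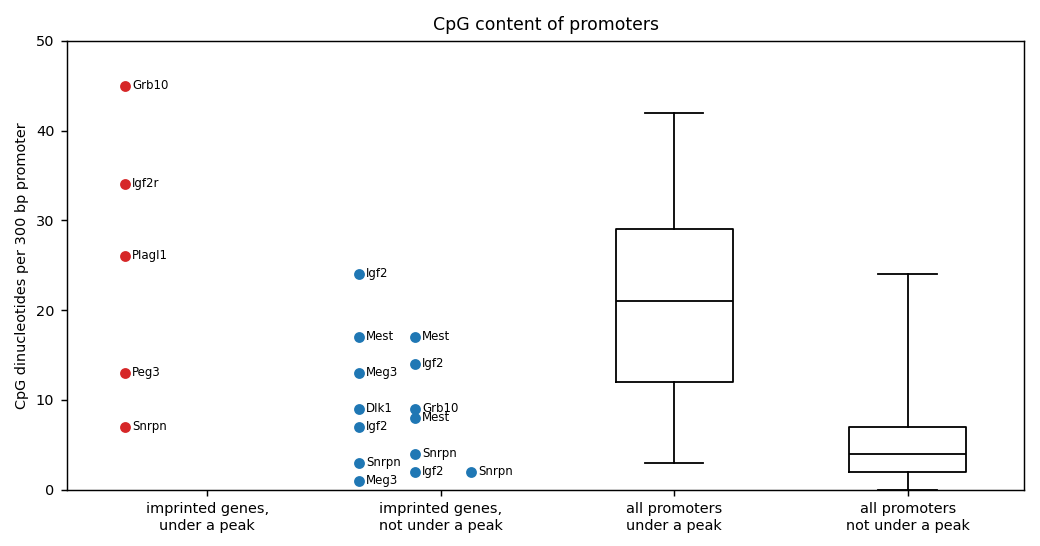
CpG dinucleotides per 300 bp promoter are shown for each promoter of the imprinted genes, under a peak or not, beside box plots of all promoters (median, quartiles, whiskers at the 5th and 95th percentiles). The 5 promoters under a peak range from 7 to 45 CpG and the 14 others from 1 to 24.

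Motif letters were searched on both strands of the promoter windows. TGCCGC, the core that the imprint-keeping zinc finger protein ZFP57 binds when methylated, occurred in 7 of the 19 promoters, against 11.7% of all promoters and 25.1% of those with 15 or more CpG. These were the overlapping Mest pair with 2 matches each, and 1 promoter each of Snrpn, Plagl1, Grb10, Igf2 and Meg3 with 1 match. The CTCF core motif and the YY1 core GCCATNTT occurred in 0 of 19, against 0.0368% and 6.08% of all promoters. The GC box GGGCGG occurred in 8 (35.9% of all promoters), and TATAAA in 2, the Meg3 promoter printed above and 1 distant Snrpn promoter (13.7%). A match is a string of letters and not a bound site. The intergenic control regions of the H19 and Meg3 pairs lie outside these windows.

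Imprinted genes outside the set of 10 more often than not had an accessible start. Of 53 other imprinted genes, 40 have a listed start, and 28 of these (70.0%) had a peak within 1 kb. The share was 47.6% of all genes, 59.0% of protein-coding genes and 26.7% of long non-coding RNA genes. Usp29 and Snurf are counted through the peaks that also serve Peg3 and Snrpn, and Airn and Zim1 through others of the 45 regions. Zrsr1 and Commd1 are counted through 1 shared region. In the Kcnq1 domain, peaks covered the starts of Kcnq1ot1, the antisense RNA that silences the domain (2309 bp), of the placental growth restrainer Phlda2 (2319 bp) and of Ascl2 (2135 bp). The ubiquitin ligase gene Ube3a, in the same domain as Snrpn, had a peak of 2547 bp. The 12 without a start peak included Magel2 and Ndn of the Snrpn domain, with the nearest peaks at 5397 and 13114 bp. They also included Rian and Mirg, non-coding genes downstream of Meg3, at 22767 and 14755 bp. The deiodinase gene Dio3 at the far end of the Dlk1-Meg3 domain did have a start peak, of 313 bp. Cdkn1c, which is also a cell cycle inhibitor gene, has no listed start and had no peak at either gene end.

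Genes that keep or remove imprints had accessible starts in 13 of 15 cases, against 47.6% of all genes and 59.0% of protein-coding genes. Among them were Zfp57 with a peak of 790 bp, its partner Trim28 with 2602 bp, the maintenance methyltransferase gene Dnmt1 with 2145 bp, its cofactor Uhrf1 with 1993 bp and Ctcf with 1609 bp. The dioxygenase genes Tet1, Tet2 and Tet3, whose products oxidise methylcytosine, had peaks of 1557, 2641 and 2412 bp. Setdb1, a histone methyltransferase gene, and Dnmt3l, a germline cofactor of DNA methylation, had no start peak. The list holds 16 genes, of which Dppa3 has no listed start. By either gene end 11 of the 16 had a peak within 1 kb, against 58.2% of all protein-coding genes. Zfp57, Dnmt1, Dnmt3a, Setdb1 and Dppa3 had none by that measure. An accessible start does not give the level of a transcript.

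**Figure D4:**
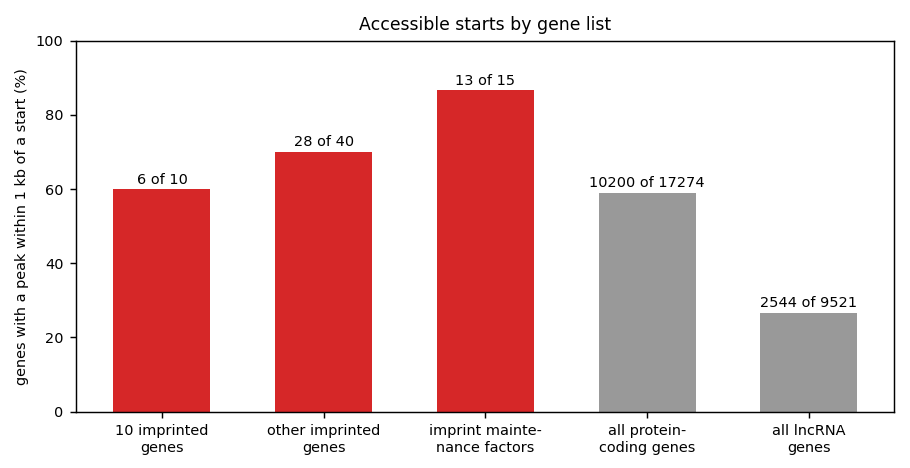
Bars give the percentage of genes with a peak within 1 kb of a listed start, with the counts above each bar. The 10 imprinted genes (6 of 10) stand near the 59.0% of all protein-coding genes, the other imprinted genes at 28 of 40 and the imprint maintenance factors at 13 of 15.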

How the data were processed

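ATAC-seq was done on 1 library for each of 2 genotypes, in 2 runs each. The authors deposited 1 list of region coordinates for all 4 runs, with no score, count or signal. Bowtie2, MACS2, bedtools and the mm10 build are named, per the submitters' processing notes. For tool versions, settings, a Tn5 offset and pooling of runs, nothing is stated in the labels or the file. Starts were converted to 1-based positions and no region was filtered out.

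Genes, promoters and microRNAs came from RefSeq tables of GRCm38.p6. A start was a listed promoter's transcript start, or for H19 its upper bound. A peak belonged to a start when it shared at least 1 base with the 1 kb on either side. Backgrounds used the same counting over all genes on the autosomes and X. The positions of the control regions and enhancers were set from general knowledge, in round distances. The script that counts starts was checked on simulated peaks. Python 3.11.15, numpy 2.4.6 and pandas 2.3.3 were used.

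No statistical test was run, since there are no values per sample. The named genes were all 10 members, the widest and nearest peaks at each, and examples from the lists. Members and lists were chosen with earlier results of these data known. The number of unused per-sample columns was 0.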

Additional observations from a re-analysis of the deposited data

How the results depend on the processing

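The number of regions around the 10 genes, 45 as reported, was 69 with windows of 100 kb and 25 with only regions at or above the median width. It was 30 with 20 kb and again 45 by midpoints. Genes of the set with a start peak numbered 6 as reported, 5 with 500 bp around the start (Mest lost), 7 with 2500 bp (H19 gained, through its control region peak), 5 by midpoints (Peg3 lost), 4 with wide regions (Mest and Grb10 lost) and 4 by either gene end (Mest and Snrpn lost). Over all genes the share was 47.6% as reported and, in the same order, 45.5%, 51.8%, 45.5%, 42.0% and 36.9%. The other imprinted genes, 28 of 40 as reported, numbered 23 with wide regions and 33 by either gene end, and between these otherwise. The 33 are out of 52 genes, since gene ends also count those without a listed start. By either gene end the share of all protein-coding genes was 58.2%. Of the 3 intergenic windows 1 held a peak, also with 1 kb added on either side and by midpoints. Neither setting could lose the H19 peak, which lies wholly inside its window. The limit at the median width was not applied to these windows, and the H19 peak of 200 bp is below it. No paired analysis was possible because the list holds no values per run. Depth is unknown, so a missing peak may be a weak one, and repeats that reads cannot be placed in were not examined.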

Other observations

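Some imprinted genes lie inside an intron of another gene, and by listed starts 1 of 3 such pairs differed in its start peak. Blcap had a peak of 1630 bp at its start, while Nnat, which lies within Blcap, had its nearest peak 6039 bp away. Zrsr1, inside Commd1, had a peak of 1595 bp over its start, and the same region reached a listed Commd1 start. This pair is counted as alike only through that shared region, since Commd1 had no peak within 1 kb of either gene end. Mcts2, inside H13, had a peak of 763 bp and H13 a separate one of 1240 bp. Gnas had a start peak of 200 bp, the smallest width in the list. The nearest peaks to Slc38a4 and Sfmbt2 lay 44515 and 76565 bp from their starts.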
